A study of Homo sapiens with 6 samples.

Results

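The dual-specificity MAP kinase phosphatases, 10 genes (DUSP1, DUSP2, DUSP4, DUSP5, DUSP6, DUSP7, DUSP8, DUSP9, DUSP10 and DUSP16), were followed through every Hic-5 array of the series. They were chosen by gene name: each probe that the array files assign to a member was used, which gave 18 of the 41000 probes on the array. DUSP16 was read by 4 probes, DUSP8 by 3, DUSP2, DUSP7 and DUSP10 by 2 each, and the other members by 1 each.

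These enzymes switch MAP kinases off by removing the phosphate from both the threonine and the tyrosine of the activation loop. DUSP1, DUSP2, DUSP4 and DUSP5 are nuclear and are themselves transcribed in response to growth factors or stress, DUSP6, DUSP7 and DUSP9 are cytoplasmic and prefer ERK, and DUSP8, DUSP10 and DUSP16 prefer JNK and p38. Because ERK signaling induces several of its own phosphatases, their transcripts are widely used as a readout of feedback in the RAS/ERK pathway.

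RNA of 5 stable clones of established human ovarian adenocarcinoma cell lines was compared on 6 two-colour Agilent Whole Human Genome arrays. In SKOV3 cells, the clones sh-S1 and sh-S2 carried lentiviral pLKO.1-puro vectors with an shRNA against Hic-5 (the product of TGFB1I1, a focal adhesion adaptor), and the Ctrl carried the same vector with a scramble sequence, all after puromycin selection. In A2780s cells, the pCMV-Hic-5 clone carried the human Hic-5 cDNA in a pCMV6 vector and the Ctrl the empty vector, after neomycin selection. Each condition was a single clone, each clone was hybridized with its Ctrl on 2 arrays with the dyes exchanged. Ratios are given as log2 of the modified clone over its Ctrl.

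The arrays of a clone repeat 1 hybridization with the dyes swapped and were counted once, so SKOV3 gave n = 2 clones against 1 shared Ctrl RNA and A2780s gave n = 1, for which no test of the condition was possible. TGFB1I1, the targeted gene (probe A_23_P141055), gave ratios of -0.16 and -0.12 with sh-S1 and sh-S2 in Cy5 and 0.12 and 0.28 with them in Cy3 (mean 0.03 ± 0.07, SD, n = 2; adjusted p = 0.855). By this probe the gene was thus not lower in the RNA labelled sh-S1 or in the RNA labelled sh-S2, so every SKOV3 direction below depends on these labels. The paper reports that reduced Hic-5 in its knockdown clones was checked by RT-PCR and Western blot, which these arrays do not include. In A2780s the same probe gave 4.05 and 2.60, a 10.0-fold higher mean in pCMV-Hic-5. The SKOV3 arrays were dim in Cy5, where the median signal over background was 9.52 to 25.5 and 43.7 to 63.6% of probes were well above background, against 373 to 530 and 88.8 to 94.5% in Cy3. The A2780s arrays lay at 325 to 568 in both dyes. Each cell line was run on a slide and in a scan of its own, and these cannot be told apart from the line.

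Cell type markers also differed between the SKOV3 RNAs. The summed level of 10 epithelial ovarian carcinoma markers was 59614 to 89637 across the Ctrl channels, 11311 to 15161 in sh-S1 and 9731 to 15546 in sh-S2, and 6, 5 and 7 of the 10 were well above background in every channel of these RNAs. The summed level of 6 fibroblast markers was 1903 to 2863 in the Ctrl, 12441 to 18745 in sh-S1 and 7256 to 12147 in sh-S2. The number well above background in every channel did not rise with it, at 3, 1 and 3 in the same order. PDGFRB was not well above background in any Ctrl channel. COL1A1 was well above it in every Ctrl channel but not in every channel of either clone. Neither list stood apart between the A2780s RNAs to that extent (epithelial 5040 to 5628 in the Ctrl and 5562 to 5566 in pCMV-Hic-5, fibroblast 11610 to 12940 and 10568 to 10962), and CDH1 stayed near background in both. The part of these markers in the phosphatase results was not tested.

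Sequences are shown for the probes whose readings the results turn on. Each probe has 60 bases, of which the first 30 are printed, 5′ to 3′ in the sense of the transcript. DUSP6 and DUSP1 are the members that differed most in SKOV3, DUSP16 is read by 4 probes that did not give the same ratio, and the first pair of DUSP8 probes overlaps by 49 bases. Capitals mark the 19 bases of that overlap that fall inside both printed stretches.
DUSP6 A_23_P139704: gcttgtgttgtcgcaaaggggataatctgg
DUSP1 A_23_P110712: tgtctactcctagaagaaccaaatacctca
DUSP16 A_23_P353905: gactgtaaatgtttaatatgaatatagtgt
DUSP16 A_23_P308924: ttccttctggaactgtgatgtagtcacatc
DUSP16 A_24_P189739: ttgtgctactaagagatctcaaatattagt
DUSP16 A_24_P73264: atggcttctcctcatcagaagatgctttgg
DUSP8 A_23_P390528: cgggtggtcctCGAGCTCTATTTTTACTGT
DUSP8 A_24_P322867: CGAGCTCTATTTTTACTGTctggtatttaa

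In hg19, the DUSP6 probe lies at chr12:89742144-89742203 and the DUSP1 probe at chr5:172195296-172195355. The DUSP16 probes start at bases 12627246, 12627544, 12629370 and 12630453 of chromosome 12 in the order printed above, and the overlapping DUSP8 probes lie at chr11:1577518-1577577 and chr11:1577507-1577566. All of these are on the minus strand. Whether each probe lies in coding or untranslated sequence was not analysed here.

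Promoter sequence of 300 bases, from 250 before to 50 after the gene start, was taken from RefSeq (GRCh38.p14) for 8 of the 10 members. It was searched on both strands for TGACGTCA (CRE), TGANTCA (AP-1), CACGTG (E box) and CCGGAAGT (ETS), none of which overlapped another in these promoters. Among 35116 RefSeq promoters of this length, 1.85% held the CRE, 7.71% the AP-1 motif, 7.26% the E box and 4.14% the ETS motif. The promoters of DUSP1, DUSP2 and DUSP8 are shown because these were the members with a probe called higher in pCMV-Hic-5, and that of DUSP6 because it differed most in SKOV3. Capitals mark the motif matches.
DUSP1: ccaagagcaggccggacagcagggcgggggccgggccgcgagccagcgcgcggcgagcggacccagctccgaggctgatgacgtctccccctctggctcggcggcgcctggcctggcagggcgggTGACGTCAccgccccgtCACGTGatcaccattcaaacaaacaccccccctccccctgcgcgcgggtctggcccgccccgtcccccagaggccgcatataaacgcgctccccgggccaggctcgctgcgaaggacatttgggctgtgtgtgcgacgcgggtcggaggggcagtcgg
DUSP2: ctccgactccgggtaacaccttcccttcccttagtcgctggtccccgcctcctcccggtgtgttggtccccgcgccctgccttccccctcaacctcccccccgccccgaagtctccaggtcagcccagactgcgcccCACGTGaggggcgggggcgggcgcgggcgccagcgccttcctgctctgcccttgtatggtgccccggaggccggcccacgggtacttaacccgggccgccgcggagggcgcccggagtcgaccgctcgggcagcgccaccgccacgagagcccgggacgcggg
DUSP8: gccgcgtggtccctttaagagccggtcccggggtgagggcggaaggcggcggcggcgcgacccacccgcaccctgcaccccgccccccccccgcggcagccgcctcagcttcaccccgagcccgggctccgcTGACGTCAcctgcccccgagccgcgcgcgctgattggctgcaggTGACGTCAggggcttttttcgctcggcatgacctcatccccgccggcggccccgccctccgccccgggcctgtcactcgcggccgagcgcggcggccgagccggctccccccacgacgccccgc
DUSP6: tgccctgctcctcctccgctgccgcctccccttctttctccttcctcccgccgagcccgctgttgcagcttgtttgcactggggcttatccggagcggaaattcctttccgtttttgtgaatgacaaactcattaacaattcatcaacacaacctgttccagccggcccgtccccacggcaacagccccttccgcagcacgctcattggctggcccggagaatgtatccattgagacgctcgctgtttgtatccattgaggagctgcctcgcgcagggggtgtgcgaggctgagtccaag

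The DUSP1 promoter (chr5:172771146-172771445, minus strand) held a CRE that begins 125 bases before the gene start and an E box 108 bases before it. The DUSP8 promoter (chr11:1572222-1572521, minus strand) held the CRE at 118 and again at 74 bases before the start. The DUSP2 promoter (chr2:96145391-96145690, minus strand) held an E box at 113 bases. No match to any of the 4 motifs was found in the DUSP6 window (chr12:89352452-89352751, minus strand) or in those of DUSP7, DUSP9, DUSP10 and DUSP16. These are matches of letters in a window and were not tied to binding by any measurement here.

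In SKOV3, the clone RNAs differed from the Ctrl most in DUSP6, which was higher, and DUSP1, which was lower, while DUSP16 rose just past 2-fold on 1 of its 4 probes. The RNA came from whole cultures, so fewer expressing cells and less RNA per cell cannot be told apart. In A2780s, DUSP1 and both DUSP2 probes lay higher in pCMV-Hic-5, and DUSP8 was called higher on 1 of its 3 probes. DUSP6 did not reach 1.5-fold there, and no member was called lower. Calls in SKOV3 asked for 2-fold and an adjusted p no higher than 0.05, and in A2780s a probe was called, without a test, when the mean reached 1.5-fold with both arrays in the same direction. Of the 18 member probes, 17 passed the filter on dim probes in SKOV3 and 3 of them were called, 2 higher and 1 lower. Over all probes the share called was 7.14% (2.98% higher and 4.16% lower). In A2780s, 17 passed and 4 were called, all higher, against 4.58% of all probes (3.26% higher and 1.32% lower). Of those called, DUSP8 A_24_P322867 passed the filter through pCMV-Hic-5 alone. The median log2 ratio of the tested member probes was 0.06 in SKOV3 and 0.05 in A2780s, beside 0.00 and -0.01 over all probes. Without regard to sign, the member probes had a median of 0.39 in SKOV3, against 0.18 over all probes, and of 0.10 in A2780s, against 0.14.

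**Figure D1:**
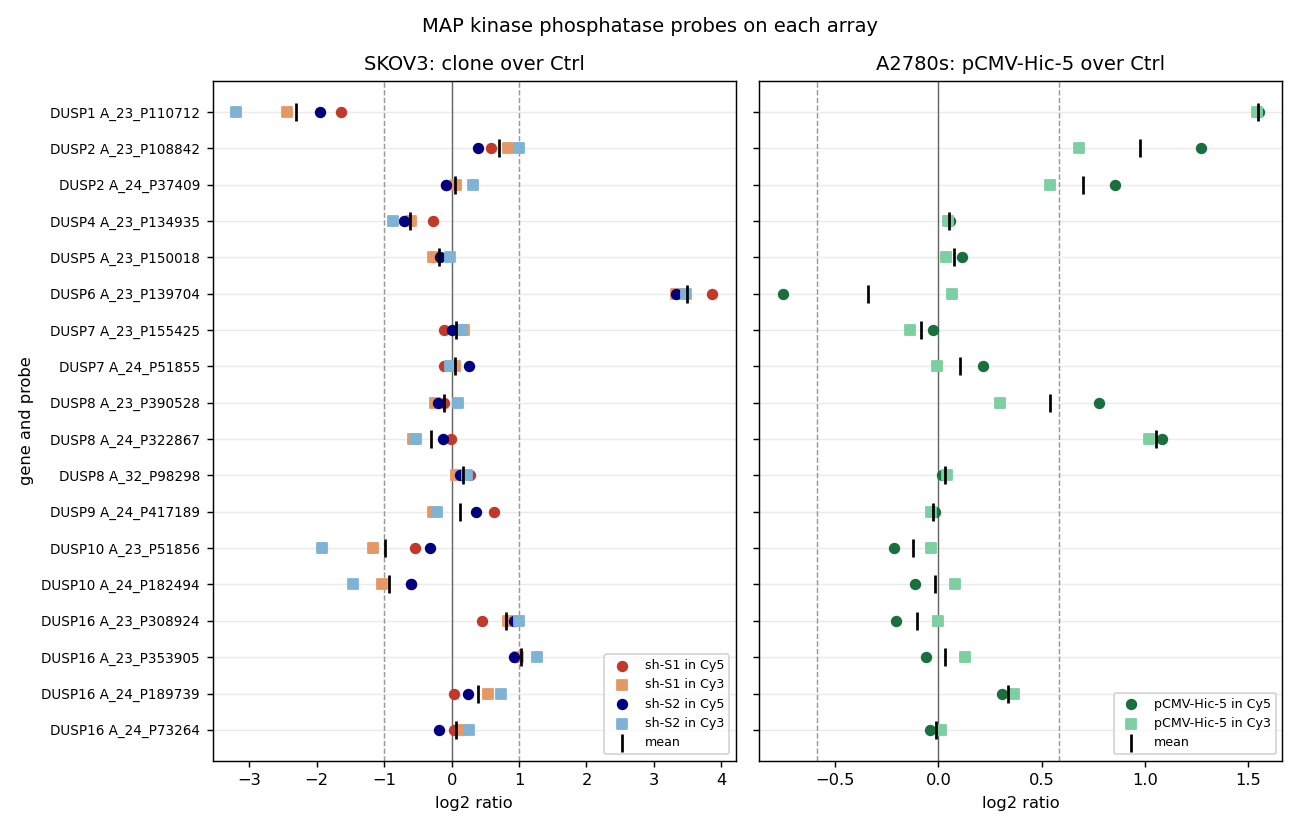
Log2 ratio of modified clone over Ctrl (horizontal axis) for each of the 18 member probes (rows) on the 4 SKOV3 arrays (left) and the 2 A2780s arrays (right). Circles are arrays with the clone in Cy5, squares arrays with it in Cy3, black ticks the mean, and dashed lines the fold thresholds (2-fold left, 1.5-fold right); DUSP6 lies alone above 3 in SKOV3, and DUSP1 lies below -1.6 in SKOV3 and near 1.5 in A2780s.

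DUSP6, the cytoplasmic phosphatase of ERK, gave log2 ratios of 3.86 and 3.32 in sh-S1 and of 3.33 and 3.47 in sh-S2 (clone in Cy5 first, here and below). All 4 arrays were high and the clones lay close together. SE, here and below, is the moderated standard error of the limma fit, not that of the 2 clone values alone. The mean was 3.50 ± 0.13 (SD, n = 2; SE 0.10), an 11.3-fold higher level in the clones (adjusted p = 3.54e-06), and it stayed between 3.40 and 4.48 under every processing tried. As log2 levels per channel, DUSP6 was 8.60, 9.51, 8.34 and 9.52 in the SKOV3 Ctrl, 12.46 and 12.83 in sh-S1, and 11.66 and 12.99 in sh-S2. No clone channel overlapped a Ctrl channel. In A2780s cells DUSP6 was already at 13.28 and 12.86 in the Ctrl and lay at 12.53 and 12.93 in pCMV-Hic-5. The A2780s ratios were -0.75 and 0.07 (mean -0.34), so the arrays did not give the same direction and no difference was called. In the order of the means, A2780s Ctrl (13.07), pCMV-Hic-5 (12.73), sh-S1 (12.64) and sh-S2 (12.33) followed each other with overlapping channels, and the SKOV3 Ctrl (8.99) lay apart from all of them.

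DUSP7 and DUSP9, the close relatives of DUSP6, were not called in either line. DUSP7 was read in SKOV3 at -0.11, 0.18, 0.01 and 0.15 by probe A_23_P155425 (mean 0.06 ± 0.03, SD, n = 2; adjusted p = 0.701). Its other probe, A_24_P51855, failed the filter, with a mean of 0.04 and no test. DUSP9 was at 0.63 and 0.37 with the clones in Cy5 and at -0.28 and -0.22 with them in Cy3, a mean of 0.12 ± 0.07 (adjusted p = 0.397) whose direction followed the dye. In A2780s, the DUSP7 probes gave means of -0.08 and 0.10 and DUSP9 gave -0.02.

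DUSP1, the nuclear phosphatase encoded by an immediate early gene, was lower in both SKOV3 clones, with ratios of -1.64 and -2.44 in sh-S1 and -1.95 and -3.19 in sh-S2. The arrays with the clone in Cy3 gave the lower value in each clone. The mean was -2.31 ± 0.38 (SD, n = 2; SE 0.14), 4.95-fold lower (adjusted p = 5.90e-05), and ranged from -2.85 to -1.80 over the processing alternatives. DUSP1 levels were 11.58, 11.35, 11.57 and 12.04 in the Ctrl, 9.94 and 8.91 in sh-S1, and 9.62 and 8.85 in sh-S2, without overlap. In A2780s DUSP1 lay the other way, at 9.16 and 9.03 in the Ctrl and at 10.71 and 10.57 in pCMV-Hic-5, with ratios of 1.55 and 1.54, a 2.92-fold higher mean; the difference between the lines was not tested. These arrays differed by less than those of any other member called in A2780s. Across the RNAs, the SKOV3 Ctrl was highest in DUSP1 (mean 11.63), pCMV-Hic-5 followed (10.64), and sh-S1 (9.42), sh-S2 (9.23) and the A2780s Ctrl (9.09) overlapped.

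DUSP2, a nuclear phosphatase first described in activated lymphocytes, was read by probes that did not give the same result in SKOV3. Probe A_23_P108842 gave 0.58 and 0.84 in sh-S1 and 0.39 and 1.00 in sh-S2, a mean of 0.70 ± 0.01 (SD, n = 2; adjusted p = 0.00166) that was under 2-fold; it passed 2-fold in the deposited ratios (1.66) and with offset 0 (1.37). Probe A_24_P37409, 668 bases further 5′, gave -0.08, 0.07, -0.08 and 0.31 (mean 0.05; adjusted p = 0.738). In A2780s both DUSP2 probes were called higher, with 1.27 and 0.68 on the first (1.97-fold) and 0.86 and 0.54 on the second (1.62-fold). The level of the first DUSP2 probe was 9.70 and 10.15 in the A2780s Ctrl and 10.97 and 10.83 in pCMV-Hic-5. In SKOV3 it was 8.08 to 8.75 in the Ctrl and 8.47 to 9.59 in the clones, which overlapped.

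DUSP4, which is nuclear like DUSP1, was lower on all 4 SKOV3 arrays (-0.28, -0.61, -0.71 and -0.86; mean -0.62 ± 0.24, SD, n = 2; adjusted p = 0.00712), a 1.53-fold difference that did not reach 2-fold. DUSP5, the nuclear phosphatase specific for ERK, was at -0.28, -0.28, -0.17 and -0.03 (mean -0.19; adjusted p = 0.210). In the deposited ratios both reached 2-fold and were called, DUSP4 at -1.03 and DUSP5 at -1.01 (adjusted p = 0.00657 and 0.0121). In A2780s, DUSP4 and DUSP5 gave 0.05 and 0.08.

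DUSP16, a phosphatase of JNK and p38, was called higher by probe A_23_P353905, with ratios of 0.96 and 0.98 in sh-S1 and 0.93 and 1.27 in sh-S2. The mean of 1.03 ± 0.09 (SD, n = 2; SE 0.10) was 2.05-fold (adjusted p = 0.000369) and lay just past the threshold: without sh-S2 it was 0.97 and with the clones in Cy5 alone 0.94, both under 2-fold. The other DUSP16 probes were lower in ratio the further 5′ they lay. Probe A_23_P308924, 298 bases 5′, gave a mean of 0.80 (adjusted p = 0.00209), A_24_P189739, 2124 bases 5′, gave 0.39 (adjusted p = 0.0259), and A_24_P73264, 3207 bases 5′, gave 0.06 (adjusted p = 0.679). The 2 probes furthest 5′ were also dim: they were well above background in 2 and 3 of the 4 Ctrl channels, against 4 for both others. Without the offset that damps ratios of dim probes, the 4 means were 1.57, 1.49, 1.26 and 0.15 in the same order. The part of signal and of position in this order was not tested. In A2780s the DUSP16 means were 0.03, -0.10, 0.34 and -0.01, and none was called.

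**Figure D2:**
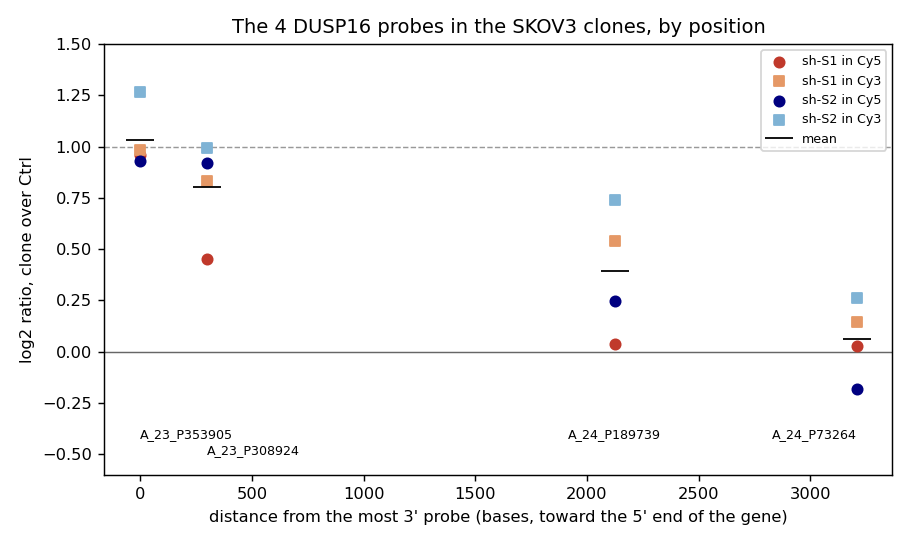
Log2 ratio of SKOV3 clone over Ctrl (vertical axis) of the 4 DUSP16 probes against their distance in bases from the most 3′ probe (horizontal axis). Circles and squares are single arrays with the clone in Cy5 and Cy3, black bars the means (1.03, 0.80, 0.39 and 0.06), and the dashed line 2-fold; the means become smaller toward the 5′ side.

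DUSP10, which also acts on JNK and p38, was lower on all 4 SKOV3 arrays by both probes and was not called. Probe A_23_P51856 gave -0.55 and -1.17 in sh-S1 and -0.32 and -1.92 in sh-S2, a mean of -0.99 ± 0.19 (SD, n = 2; adjusted p = 0.000679), which is 1.99-fold. Its ratios were lower with the clone in Cy3 than in Cy5 in both clones, and it passed 2-fold with the clones in Cy3 alone (-1.54), after median centring (-1.23), with offset 0 (-1.83), in the deposited ratios (-2.43) and without sh-S1 (-1.12). Probe A_24_P182494 of DUSP10 gave -0.60, -1.03, -0.60 and -1.46 (mean -0.92; adjusted p = 0.000758), and its mean was -3.90 in the deposited ratios, -2.61 with offset 0, -1.71 after median centring, -1.24 with the clones in Cy3 alone and -1.03 without sh-S1, all past 2-fold. It was not well above background in either clone on any array, so its level in the clones is uncertain. Each clone signal was raised to no less than the lowest signal well above background on its array. The clone mean then lay 1.74-fold under the Ctrl mean in sh-S1 and 2.04-fold under it in sh-S2. Raising left the measured mean of sh-S2 at 7.18 and moved that of sh-S1 from 7.24 to 7.25. These folds are thus close to the measured ratios and set no detection limit. In A2780s, DUSP10 gave -0.12 by A_23_P51856, and A_24_P182494 failed the filter.

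DUSP8, a further phosphatase of JNK and p38, was called higher in pCMV-Hic-5 by probe A_24_P322867, with ratios of 1.08 and 1.02 (2.07-fold). Its level was 6.79 and 6.70 in the A2780s Ctrl, where 1 of 2 channels was well above background, and 7.87 and 7.72 in pCMV-Hic-5. This probe thus passed the filter on dim probes through pCMV-Hic-5 alone, so the filter favoured the direction found. With normexp on all spots its mean was 0.64. Probe A_23_P390528, which shares 49 of its 60 bases, gave 0.78 and 0.30 (mean 0.54, 1.45-fold), just under the threshold, which it passed in the deposited ratios (0.61), after median centring (0.59) and with Cy5 alone (0.78). The third DUSP8 probe, A_32_P98298, lies 1634 bases further 5′ than A_24_P322867 and gave 0.02 and 0.04. In SKOV3 the 3 DUSP8 probes gave means of -0.31 (A_24_P322867, adjusted p = 0.0437), -0.12 (adjusted p = 0.421) and 0.17 (adjusted p = 0.221), and the first was at -1.27 in the deposited ratios and called there (adjusted p = 0.0104).

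**Figure D3:**
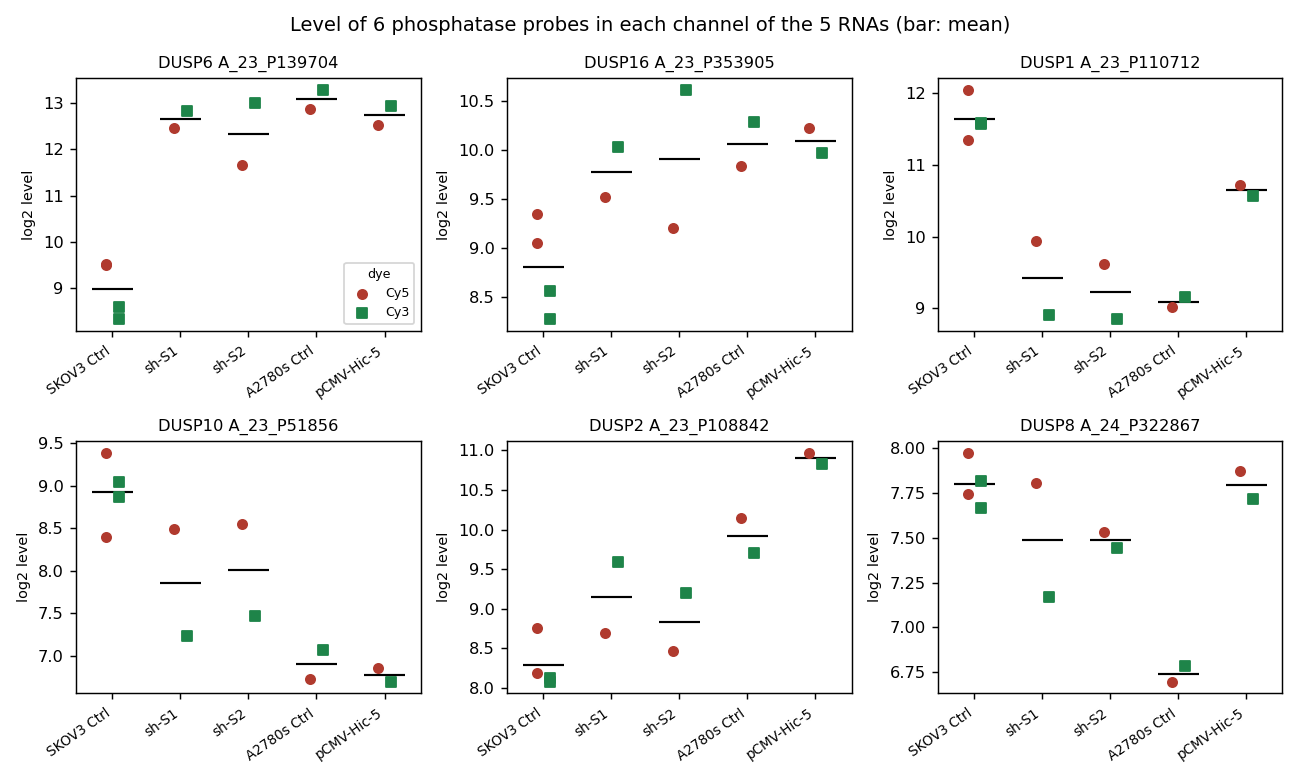
Log2 level per channel (vertical axes, each with its own range) of 6 member probes in the 5 RNAs (horizontal axes). Red circles are Cy5 channels, green squares Cy3 channels, and bars the mean of the 4 channels of the SKOV3 Ctrl or the 2 of every other RNA; the SKOV3 Ctrl lies apart from both clones in DUSP6 and DUSP1, and pCMV-Hic-5 lies above its Ctrl in DUSP1, DUSP2 and DUSP8.

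By adjusted p alone, 10 of the 17 tested member probes passed in SKOV3, 5 higher and 5 lower, against 31.8% of all probes. The higher ones belonged to DUSP6, DUSP16 (3 probes) and DUSP2, and the lower ones to DUSP1, DUSP10 (both probes), DUSP4 and DUSP8. Some of these passed the filter on dim probes only through the RNA in which they were brighter. DUSP10 A_24_P182494 and DUSP8 A_24_P322867 passed through the Ctrl alone, and DUSP16 A_24_P189739 through sh-S2 alone. For these probes the filter favoured the direction found. Members with like substrates or a like location were found on both sides. Among the JNK and p38 phosphatases, DUSP16 was higher and DUSP10 lower. Among the nuclear ones, DUSP1 and DUSP4 were lower and DUSP2 was higher by A_23_P108842 but not by A_24_P37409 (mean 0.05). As levels, clone and Ctrl channels did not overlap for 3 of 17 member probes (DUSP6, DUSP1 and DUSP16 A_23_P308924), against 15.3% of all probes.

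Of the 16 member probes that passed the filter in both lines, the channels of the Ctrl RNAs did not overlap for 10, 6 higher and 4 lower in A2780s, a share near the 56.5% of all such probes. A2780s Ctrl minus SKOV3 Ctrl, as a difference of mean log2 levels, was 4.08 for DUSP6, 1.64 for DUSP2 (A_23_P108842), 1.25 for DUSP16 (A_23_P353905), -1.48 for DUSP4, -2.03 for DUSP10 (A_23_P51856) and -2.54 for DUSP1. The mean of the SKOV3 clones minus the SKOV3 Ctrl was 3.50, 0.70, 1.03, -0.62, -0.99 and -2.31 for the same probes. These probes are a part of the members, and not every member had like signs. In the same order of differences, DUSP5 gave 0.06 and -0.19, and DUSP9 gave -0.05 and 0.12. Both kinds of difference share the SKOV3 Ctrl, and the first kind also spans slides, so they are given side by side and not as separate support.

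The probes with the ratios nearest to DUSP6 over the 6 arrays, by root mean square difference among 23728 probes that passed the filter in both lines, belonged to HMGA2 (0.297), TMEM30B (0.301) and RDH10 (0.331). HMGA2, an architectural chromatin protein, had a mean of 3.69 in SKOV3 and -0.30 in A2780s. The nearest to DUSP1 belonged to FAM129A (0.448), GADD45B (0.465) and PROSER2 (0.518). GADD45B, a stress-response gene that acts on the p38 and JNK cascades, had a mean of -2.09 in SKOV3 and 1.02 in A2780s.

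The kinases and adaptors of the MAP kinase cascades were read by the brightest probe of each gene. Of 30 cascade genes, 26 were tested in SKOV3, of which 4 were called, 3 of them higher (median -0.03), 15.4% against 8.18% of all genes. MAP2K6, a kinase that activates p38, rose by 2.15, the adaptor SHC1 by 1.55 and the p38 kinase MAPK11 by 1.17. MAP2K6 and SHC1 each had another probe near 0 (0.21 and 0.18). In A2780s, 2 of 29 cascade genes were called, both lower (MAP2K3 at -0.90 and MAP2K4 at -0.60, kinases upstream of p38 and JNK), 6.90% against 4.99% of all genes, with a median of 0.00.

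Genes that respond to ERK moved both ways. Of 17 such genes, 3 rose and 2 fell in SKOV3 (29.4% called against 8.18% of all genes, median 0.33). SPRY2, SPRY1 and SPRY4, which encode Sprouty inhibitors of receptor signaling, rose by 3.28, 2.14 and 1.16, beside the 3.50 of DUSP6. IER3 fell by 3.51 and PHLDA1 fell by 2.88, and the 4 PHLDA1 probes ranged from -2.88 to -0.22. In A2780s, 4 of the 17 were called higher and 2 lower (35.3% against 4.99% of all genes, median 0.31), among them ETV5 at 0.88, FOS at 0.65, PHLDA1 at -0.97 and EGR1 at -1.14. FOS and EGR1, immediate early genes like DUSP1, thus lay on opposite sides of the Ctrl in pCMV-Hic-5. Of the Sprouty genes, SPRY2 was called higher in pCMV-Hic-5 as well (0.62), and SPRY1 (0.52) and SPRY4 (0.36) were not called.

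**Figure D4:**
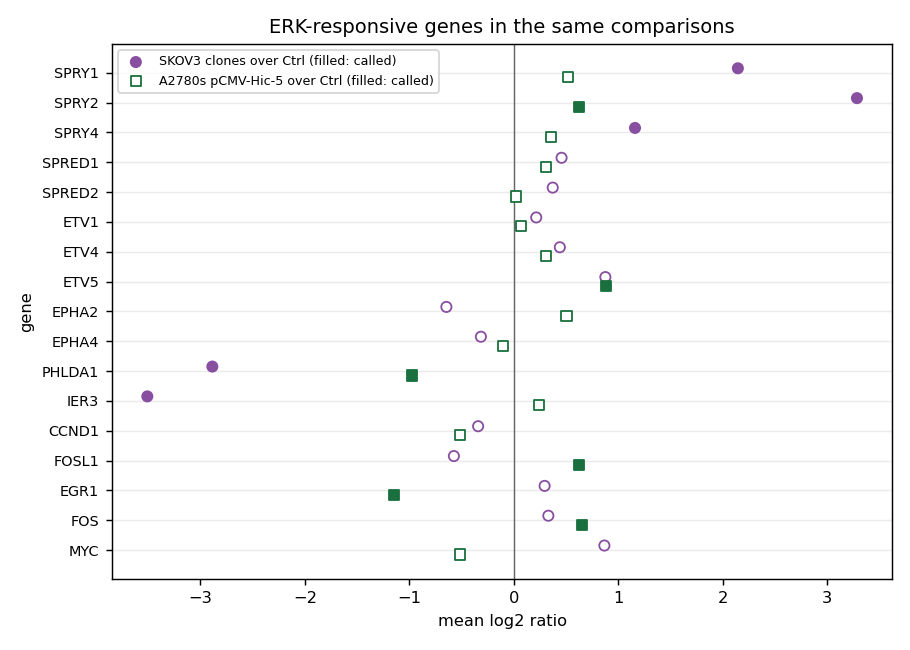
Mean log2 ratio (horizontal axis) of 17 ERK-responsive genes (rows) in the SKOV3 clones (purple circles, n = 2) and in A2780s pCMV-Hic-5 (green squares, n = 1), by the brightest probe of each gene. Filled symbols were called; the Sprouty genes SPRY1, SPRY2 and SPRY4 lie at 1.16 to 3.28 in SKOV3, and IER3 and PHLDA1 lie below -2.8.

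Among phosphatases outside the family, 2 of 16 tested in SKOV3 were called, both lower (12.5% against 8.18% of all genes, median -0.07), while 8 passed the adjusted p alone, 3 higher and 5 lower. DUSP23, a small atypical dual-specificity phosphatase, fell by 2.48, and PPP2CB, which encodes a catalytic subunit of a major serine/threonine phosphatase, fell by 1.23. In A2780s, 1 of 18 was called, DUSP14 at 0.68 (5.56% against 4.99% of all genes, median 0.00).

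**Figure D5:**
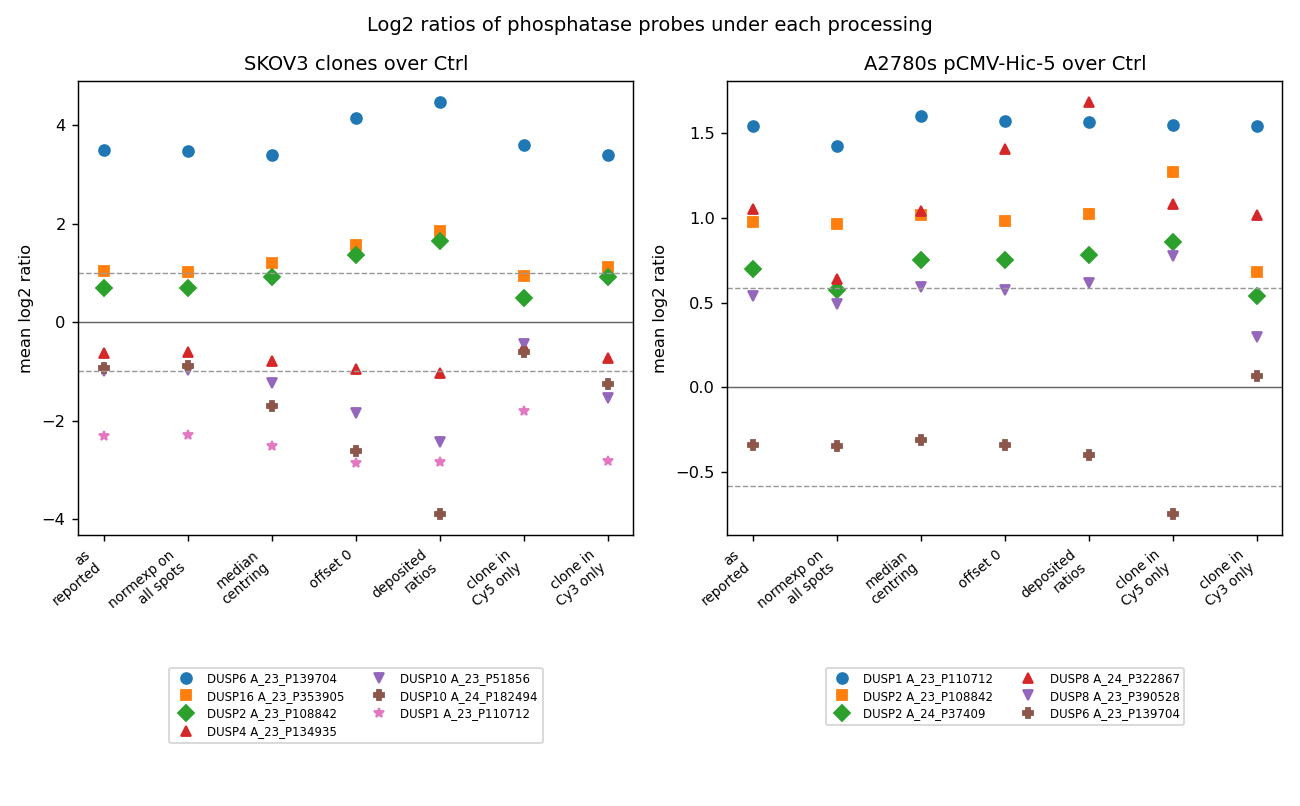
Mean log2 ratio (vertical axis) of 7 SKOV3 (left) and 6 A2780s (right) member probes under the reported processing and 6 alternatives (horizontal axis), with dashed lines at the fold thresholds. DUSP6 and DUSP1 stay past 2-fold in every SKOV3 column, DUSP10 lies on either side of it depending on the column, and DUSP1 stays between 1.42 and 1.60 in A2780s.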

How the data were processed

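Gene expression was measured in the 6 arrays described above, with groups taken from the channel labels. The authors deposited spot intensities as extracted by Agilent Feature Extraction (version 8.5.1.1 per the labels, module 10.7.3.1 per the file headers), not normalized, and log10 ratios of Cy5 over Cy3 computed by that software. The deposited series values equal the scanner log10 ratios within 0.497%. Probe coordinates are in hg19 per the file headers.

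Mean intensity and median local background were corrected with normexp (offset 50), which damps ratios of dim probes. The fit left out spots with background outlier flags, and 40 spot readings with a background over 1000 were dropped. Ratios were loess-normalized within arrays, control and outlier-flagged spots were left out, spots of a probe were averaged, and ratios were turned to clone over Ctrl (limma 3.58.1, R 4.3.3). In SKOV3, dye swaps were averaged and the 2 clone means were compared with 0 by limma's moderated test (lmFit, eBayes), with Benjamini-Hochberg adjustment over 24955 probes. The single Ctrl RNA leaves the spread of the Ctrl out of these p-values, and no source says that clones stand for separate cultures. Averaging also leaves out the spread between the dye swaps of a clone. Over these probes, the dye swaps correlated at 0.61 in sh-S1 and in sh-S2 (Pearson r). The clones correlated at 0.89 with both in Cy5 and at 0.90 with both in Cy3. The A2780s dye swaps correlated at 0.49. A probe was tested if either the Ctrl, on every array of its line, or a clone, on both of its arrays, was well above background (30529 probes in A2780s). Levels are per-channel log2 values after loess and Aquantile normalization. The script was tested on simulated data.

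The members, gene lists and named genes (all members, up to 4 called genes per list with the largest ratios, and the 3 nearest genes to the highest and lowest member) were chosen with earlier results of these data known; SPRY4 was named after its value was seen. The value of 1 called gene of these lists is not reported here. Alternatives were the deposited ratios, normexp on all spots, offset 0, median centring, no filter, each dye orientation alone, each clone left out, other call thresholds and the mean over probes. Figures were drawn with matplotlib in Python. The number of arrays limits the precision.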

Additional observations from a re-analysis of the deposited data

How the results depend on the processing

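In SKOV3, DUSP6 and DUSP1 were called under every alternative run, and no member probe called in SKOV3 under the reported processing or an alternative changed direction. In A2780s, the 4 probes called kept their direction under every alternative. The member count of 3 (2 higher, 1 lower) became 11 (5 and 6) in the deposited log10 ratios, 8 (5 and 3) with offset 0, 5 (2 and 3) after median centring, 5 (2 and 3) with the clones in Cy3 alone and 10 by adjusted p alone. With 1 clone left out it was 2 to 5 without a test, 2 without sh-S2 and 5 without sh-S1. All probes called were 1781, and 4316 in the deposited ratios, 3499 with offset 0 and 7930 by adjusted p alone. Cascade genes went from 4 to 11, 7 and 11 in the same order and to 2 with the mean over probes, ERK-responsive genes from 5 to 9, 8 and 13, and other phosphatases from 2 to 4 in the deposited ratios and 8 by adjusted p alone.

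In A2780s, the 4 member probes stayed within 3 to 6 under every alternative. All probes called were 1397, and 3311 with the clone in Cy5 alone and 618 when 1.5-fold was asked of each array. Cascade genes went from 2 to 1 with normexp on all spots or median centring, 5 with Cy5 alone, and 0 with Cy3 alone or 1.5-fold on each array. ERK-responsive genes went from 6 to 3 with 1.5-fold on each array, and other phosphatases from 1 to 2 after median centring or with Cy5 alone and 0 with 1.5-fold on each array. DUSP6 passed 1.5-fold with Cy5 alone (-0.75) and lay on the other side of 0 with Cy3 alone (0.07), the DUSP8 probe A_23_P390528 passed it in the deposited ratios, after median centring and with Cy5 alone, and the DUSP2 probe A_24_P37409 fell under it with normexp on all spots (0.57) and with Cy3 alone (0.54).

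Uncalled SKOV3 values that changed sign were DUSP2 A_24_P37409 (-0.083), DUSP7 A_23_P155425 (-0.051), DUSP16 A_24_P73264 (-0.077) and TGFB1I1 (-0.14) with Cy5 alone, DUSP9 (-0.25) with Cy3 alone and DUSP7 A_23_P155425 (-0.053) in the deposited ratios. Without sh-S2, which leaves no test, DUSP2 A_24_P37409 (-0.0068) and TGFB1I1 (-0.021) also did. Offset 0 and the deposited ratios do not damp dim probes, and the cause of the other changes was not tested. Each ratio sets a clone against its Ctrl on the same array, and no further block was fitted, since the labels give no replicate numbers shared between groups. The dim Cy5 channel of the SKOV3 arrays limits what can be read of the weaker probes.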
